A study of Mus musculus with 49 samples.

Results

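Gbp2, Gbp2b, Gbp3, Gbp4, Gbp5, Gbp6, Gbp7, Gbp8, Gbp9 and Gbp10, the mouse guanylate-binding protein genes named by symbol, were taken from a table of raw counts for the neocortex of 49 mice. All 10 of the 10 symbols were found among the 45252 genes of the table, and all 10 passed the filter on low counts together with 18220 genes in all. The mice came from a vaccination study of TDP-43, the RNA-binding protein that leaves the nucleus and aggregates in amyotrophic lateral sclerosis and frontotemporal dementia. The rNLS8 mouse carries a human TDP-43 that lacks the nuclear localization signal (hTDP-43ΔNLS) behind a tetO promoter and a NEFH-tTA transgene that drives it in neurons, so that the protein is made once doxycycline is removed from the chow.

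Every mouse was of mixed strain (C57BL/6J x C3H/HeJ), was injected from 8 weeks of age 5 times before and 1 time after induction, lost doxycycline at 25.5 weeks and was sacrificed 3 weeks later, at 28.5 weeks of age. The control group, ctrl-PBS, held 17 monogenic littermates that carry only the tetO-hTDP-43ΔNLS transgene and were injected with PBS (10 females and 7 males). The other 3 groups were bigenic rNLS8 mice: TDP-PBS received PBS (n = 10, 4 females), TDP-10+12 received 40 µg of the TDP-43 peptides 10 and 12 (n = 10, 6 females), and TDP-15 received 40 µg of peptide 15, a phospho-peptide (n = 12, 5 females). The monogenic controls lack the NEFH-tTA driver as well as the induced protein, so these cannot be told apart. Per the paper's methods, the 40 µg were peptides coupled to ovalbumin, mixed with a CpG oligonucleotide and with Alhydrogel as adjuvant. In the PBS groups, PBS took the place of the peptide conjugates, and the methods name no other change. The immunized groups thus differ from TDP-PBS in the ovalbumin carrier as well as in the peptides.

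Guanylate-binding proteins are large GTPases that interferons, above all interferon gamma, induce in most cell types, through interferon-stimulated response elements and gamma-activated sites in their promoters. They assemble on the membranes of vacuoles and on bacteria inside the cell, act with the immunity-related GTPases such as Irgm1 and Iigp1, and feed into inflammasomes. Mouse strains are known to differ in whether interferon induces Gbp2b, which was formerly called Gbp1.

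In the RefSeq annotation of GRCm38.p6, Gbp5, Gbp7, Gbp3, Gbp2b and Gbp2 lie in this order on chromosome 3 between positions 142496934 and 142638008, and Gbp8, Gbp9, Gbp4, Gbp10 and Gbp6 lie on chromosome 5 between positions 105012513 and 105295871. Promoter windows of 300 bases (250 before to 50 after the start, RefSeq, GRCm38.p6) were at hand for the 5 genes on chromosome 3. The windows were searched on both strands for GAAA repeated after any 2 bases, the core of the interferon-stimulated response element, and for TTC and GAA parted by any 3 bases, the core of the gamma-activated site. Each of the 5 genes had a window with the first motif, which 3.44% of all 32851 windows held, and Gbp5 and Gbp7 each held 2 copies of the second, which 8.3% of all windows held. A match is a description of letters and not a shown binding site. The windows of the 4 genes to which the results return most are given from 5′ to 3′, all on the + strand, with the matches in capitals: Gbp3 (chr3:142559794-142560093) for its large difference, Gbp7 (chr3:142530086-142530385) for carrying both motifs, and the neighbours Gbp2b (chr3:142594597-142594896) and Gbp2 (chr3:142620413-142620712) because they are alike in coding sequence and unlike in their levels.
Gbp3: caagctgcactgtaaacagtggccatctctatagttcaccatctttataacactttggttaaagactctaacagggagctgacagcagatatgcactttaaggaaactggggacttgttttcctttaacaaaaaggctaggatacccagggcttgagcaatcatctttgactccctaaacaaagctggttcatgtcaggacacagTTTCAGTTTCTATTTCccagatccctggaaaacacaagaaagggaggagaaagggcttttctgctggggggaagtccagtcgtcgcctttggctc
Gbp7: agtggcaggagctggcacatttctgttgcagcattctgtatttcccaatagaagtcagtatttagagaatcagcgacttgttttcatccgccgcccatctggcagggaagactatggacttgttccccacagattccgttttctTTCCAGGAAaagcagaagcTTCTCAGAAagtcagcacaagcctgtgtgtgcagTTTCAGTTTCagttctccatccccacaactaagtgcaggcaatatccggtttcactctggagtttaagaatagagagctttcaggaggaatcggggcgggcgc
Gbp2b: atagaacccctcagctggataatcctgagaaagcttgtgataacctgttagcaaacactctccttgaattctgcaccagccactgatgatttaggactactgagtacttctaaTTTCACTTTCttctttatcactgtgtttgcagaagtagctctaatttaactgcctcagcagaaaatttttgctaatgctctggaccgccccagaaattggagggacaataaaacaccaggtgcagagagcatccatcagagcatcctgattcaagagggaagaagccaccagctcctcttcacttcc
Gbp2: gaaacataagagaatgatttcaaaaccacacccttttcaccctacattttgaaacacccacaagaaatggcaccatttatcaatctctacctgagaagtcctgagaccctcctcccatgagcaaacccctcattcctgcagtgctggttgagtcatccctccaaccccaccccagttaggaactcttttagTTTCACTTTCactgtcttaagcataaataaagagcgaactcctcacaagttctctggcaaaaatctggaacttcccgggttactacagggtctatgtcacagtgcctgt
In the Gbp3 window 2 matches to the response element overlap, with first bases 45 and 39 bases before the start. A second Gbp3 window, for another transcript start, held neither motif. The match in Gbp7 starts 53 bases before the start and that in Gbp2 59 bases before it, while that in Gbp2b lies farther out, at 137 bases. The letters matched in Gbp2 and Gbp2b are identical, TTTCACTTTC.

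The coding sequences of Gbp2 and Gbp2b are 82.5% identical, and no stretch of 100 bases, the read length, is shared between the transcripts of either gene and any other member. The pair Gbp6 and Gbp10 is 98.4% identical in coding sequence. Of the stretches of 100 bases, 46.7% in Gbp6 and 57% in Gbp10 also occur in another member or in Gbp11, which is not among the 10. Counted between Gbp6 and Gbp10 alone, these values were 44.2% and 56.1%. Reads from Gbp6 and Gbp10 may thus have been split or shared between them, and their values are uncertain as values of 1 gene. For the other 8 members the share found in another member or in Gbp11 was between 0 and 3.81%. The gene models of Gbp8, Gbp9 and Gbp4 overlap on the same strand in the GENCODE annotation (not in that of RefSeq), and which annotation was used for counting is not given in the sources used here.

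The libraries held between 17775738 and 21033608 counts. At this depth, 3 counts correspond to 0.139 to 0.165 CPM (the count relative to the library's total, scaled by the trimmed mean of M-values), which is taken as the floor of detection and covers counting error only. Labelled sexes were in accord with Xist and Ddx3y in all 49 mice, and markers of neocortical neurons were present at high levels in every library (the 4 excitatory markers summed to at least 1631 CPM). All values are from whole tissue, in which fewer cells of a type and less RNA per cell cannot be told apart.

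To ask how the members responded to induced hTDP-43ΔNLS, TDP-PBS was compared with ctrl-PBS. Of the 10 members 8 were higher in TDP-PBS and none was lower (edgeR quasi-likelihood test, adjusted p-value under 0.05), beside 21.9% of all genes tested that were higher and 21.6% that were lower. The median log2 fold change of the 10 members was 1.42, against -0.00 for all genes tested. Gbp6 and Gbp10 differed most, Gbp3 followed, and Gbp4 and Gbp8 were not called. The plot of levels by mouse shows all 10 genes.

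**Figure D1:**
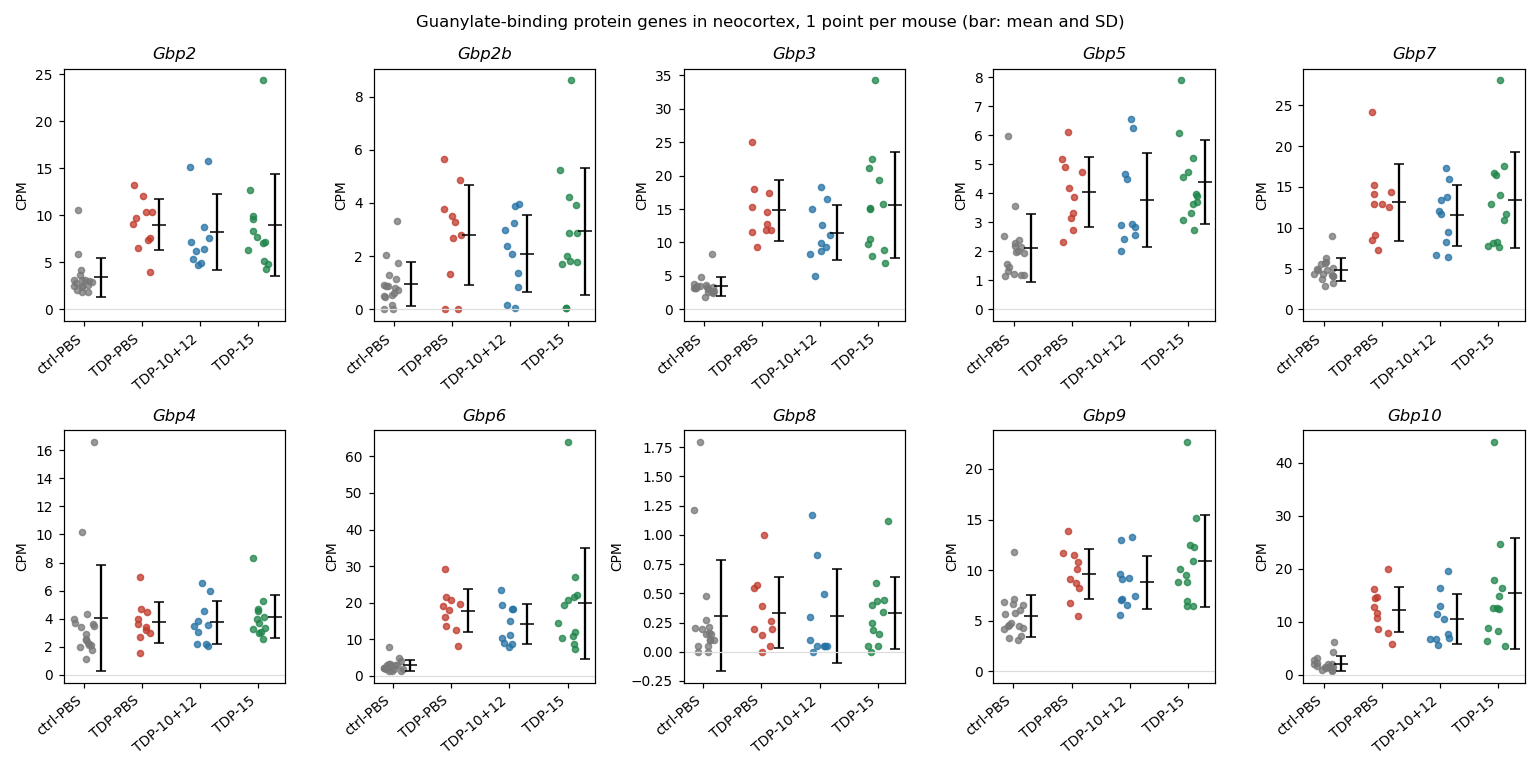
CPM of each member in each of the 49 mice by group, 1 point per mouse, with the group mean and SD as a bar beside the points (linear axes that differ between panels). Gbp6, Gbp10 and Gbp3 are separated best between ctrl-PBS and the rNLS8 groups, Gbp4 and Gbp8 overlap throughout, and in Gbp2b each group has mice at or near 0.

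Among the genes on chromosome 5, Gbp6 was between 1.29 and 7.80 CPM in ctrl-PBS (median 2.23) and between 8.07 and 29.2 CPM in TDP-PBS (median 18.5). The groups did not overlap, which held for 2.31% of all genes tested in this direction. The log2 fold change was 2.63 ± 0.26 (SE, adjusted p = 6.35e-12), a 6.20-fold difference. Gbp10, its near-copy, was between 0.644 and 6.16 CPM in ctrl-PBS (median 1.61) and between 5.72 and 19.9 CPM in TDP-PBS (median 12.2). Of the TDP-PBS mice 9 of 10 lay above every control, and the log2 fold change was 2.55 ± 0.28 (SE, adjusted p = 1.04e-10). Gbp9 showed a smaller difference. It was between 3.04 and 11.8 CPM in ctrl-PBS (median 4.79) and between 5.48 and 13.9 CPM in TDP-PBS (median 9.62), so that the groups overlapped widely, with a log2 fold change of 0.81 ± 0.18 (SE, adjusted p = 0.000192).

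Gbp4 and Gbp8, also on chromosome 5, were at like levels in both groups. Gbp4 was between 1.15 and 16.6 CPM in ctrl-PBS (median 2.91) and between 1.55 and 6.95 CPM in TDP-PBS (median 3.50), with a log2 fold change of -0.11 (95% interval -0.68 to 0.46, adjusted p = 0.787). The control group had the highest Gbp4 level of all 49 mice. Without ctrl-PBS mouse 131 and TDP-15 mouse 126 the Gbp4 value was 0.20 (adjusted p = 0.491). Gbp8 was the lowest member, and 23 of 49 mice had 3 counts of it or fewer. It was between 0 and 1.80 CPM in ctrl-PBS (median 0.151) and between 0 and 1.0 CPM in TDP-PBS (median 0.227). A difference was not detectable at this depth (log2 fold change 0.13, 95% interval -1.06 to 1.31).

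Among the genes on chromosome 3, Gbp3 was between 1.81 and 8.35 CPM in ctrl-PBS (median 3.24) and between 9.36 and 25.0 CPM in TDP-PBS (median 13.7). All 10 TDP-PBS mice lay above every control, and the log2 fold change was 2.08 ± 0.21 (SE, adjusted p = 5.17e-12). Gbp7, whose product has been tied to the oxidative killing of bacteria, was between 2.85 and 8.95 CPM in ctrl-PBS (median 4.82) and between 7.33 and 24.2 CPM in TDP-PBS (median 12.9). Of the TDP-PBS mice 8 of 10 were above every control, and the log2 fold change was 1.43 ± 0.18 (SE, adjusted p = 6.16e-09).

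Gbp2, known for its assembly on the vacuole of Toxoplasma, was between 1.84 and 10.6 CPM in ctrl-PBS (median 2.88) and between 4.01 and 13.2 CPM in TDP-PBS (median 9.40). The control at 10.6 CPM, male 131, lay above all but 2 of the TDP-PBS mice, and the next control was at 5.90 CPM. The log2 fold change was 1.4 ± 0.24 (SE, adjusted p = 4.80e-06), and without mice 131 and 126 it was 1.60. Gbp5, known for promoting assembly of the NLRP3 inflammasome, was between 1.15 and 5.97 CPM in ctrl-PBS (median 1.99) and between 2.32 and 6.13 CPM in TDP-PBS (median 4.02). Its log2 fold change was 0.93 ± 0.21 (SE, adjusted p = 0.00029), with 1 of 10 TDP-PBS mice beyond the highest control.

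Gbp2b differed in mean like its neighbours, but with a far wider spread. It was between 0 and 3.31 CPM in ctrl-PBS (median 0.786) and between 0 and 5.67 CPM in TDP-PBS (median 3.04), and both groups included mice with no count at all. The log2 fold change was 1.56 ± 0.52 (SE, adjusted p = 0.0115). This call depended on the test, since limma-voom gave 1.06 with an adjusted p of 0.397.

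The immunized rNLS8 groups were compared with ctrl-PBS as well, so that all 3 comparisons share their control mice. Gbp6, Gbp10 and Gbp3 again had the 3 largest log2 fold changes, with Gbp10 first in both groups. In TDP-10+12, 7 of 10 members were higher than in ctrl-PBS and none was lower, beside 20.8% of all genes higher and 20.0% lower. In TDP-15, 8 of 10 were higher and none lower, beside 23.7% of all genes higher and 23.2% lower. The median log2 fold changes of the members were 1.20 and 1.42.

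Gbp6 was between 7.88 and 23.4 CPM in TDP-10+12 (median 13.2) and between 7.30 and 63.9 CPM in TDP-15 (median 17.0). All 10 TDP-10+12 mice and 11 of 12 TDP-15 mice lay above every control, where 2.23% and 2.45% of all genes had no overlap in this direction. The log2 fold changes were 2.30 ± 0.26 in TDP-10+12 and 2.79 ± 0.25 in TDP-15 (SE, adjusted p = 4.22e-10 and 2.97e-13). Gbp10 differed by 2.32 ± 0.28 and 2.87 ± 0.27 (SE), within the standard errors of Gbp6, and 9 of 10 and 11 of 12 mice above every control.

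Gbp3 was between 5.02 and 18.2 CPM in TDP-10+12 (median 10.5) and between 6.88 and 34.3 CPM in TDP-15 (median 15.1). Its log2 fold changes against ctrl-PBS were 1.72 ± 0.21 and 2.16 ± 0.20 (SE), with 8 of 10 and 10 of 12 mice above every control. For Gbp7 these values were 1.24 ± 0.18 and 1.46 ± 0.18, and for Gbp2 they were 1.26 ± 0.25 and 1.39 ± 0.23 (SE). Gbp5 differed by 0.82 ± 0.21 and 1.05 ± 0.20 and Gbp9 by 0.68 ± 0.18 and 0.99 ± 0.17 (SE), all called. Gbp4 differed by -0.11 and 0.04 and Gbp8 by -0.01 and 0.11 on the log2 scale, and neither was called in either group.

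Gbp2b was between 0.0508 and 3.96 CPM in TDP-10+12 (median 2.23) and between 0.0488 and 8.62 CPM in TDP-15 (median 2.44). Its log2 fold change was 1.16 ± 0.53 in TDP-10+12 (SE, adjusted p = 0.0732), which is not past the threshold, and 1.64 ± 0.49 in TDP-15 (SE, adjusted p = 0.00519). The TDP-10+12 value passed the threshold when only those groups were fitted (adjusted p = 0.0425), and also without control mouse 71 (0.0282), without TDP-10+12 mouse 51 (0.041) and without TDP-10+12 mouse 130 (0.0383). The TDP-15 value did not pass it with limma-voom (1.52, adjusted p = 0.156).

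**Figure D2:**
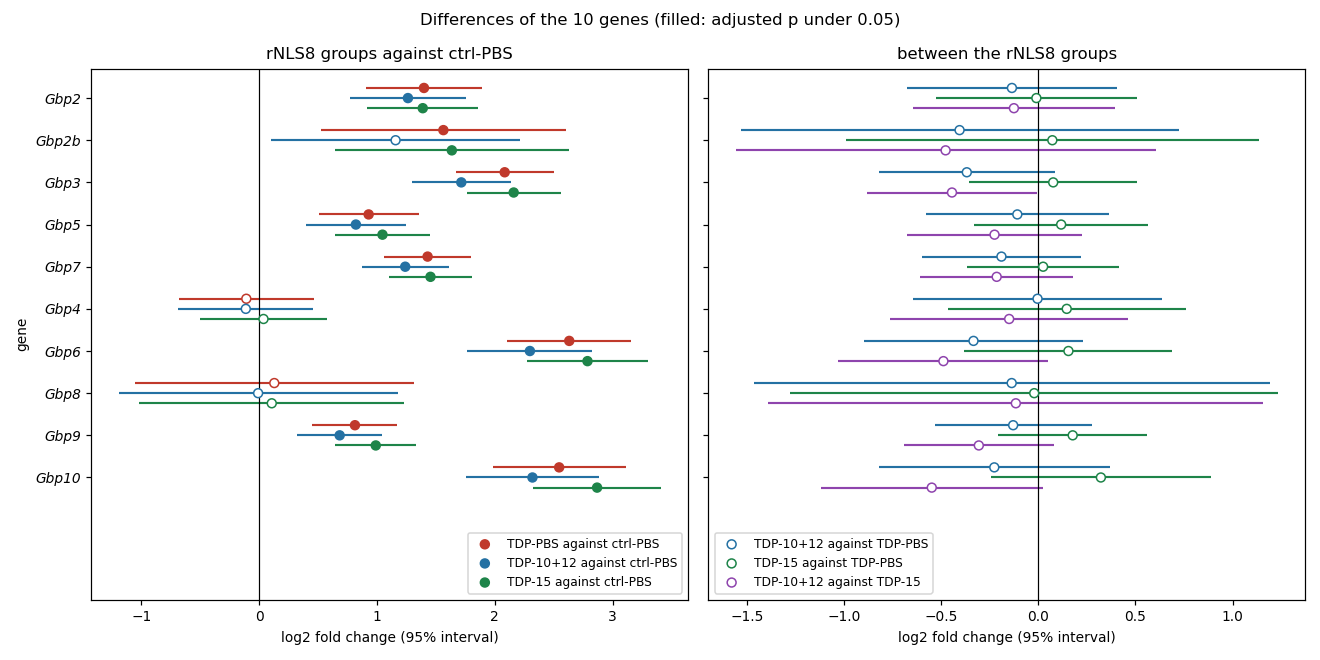
Log2 fold changes of the 10 members with 95% intervals, for the 3 rNLS8 groups against ctrl-PBS (left) and between the rNLS8 groups (right), with filled points for adjusted p-values under 0.05. On the left 8, 7 and 8 members are filled, all to the right of 0, and on the right none is filled and 29 of the 30 intervals include 0.

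Whether vaccination altered the members was asked by comparing the immunized groups with TDP-PBS and with each other. No member was called in any of these 3 comparisons, and neither was any of the 18220 genes tested (0% called), while 952 (5.23%), 552 (3.03%) and 1244 (6.83%) genes had an unadjusted p-value under 0.05 in TDP-10+12 against TDP-PBS, TDP-15 against TDP-PBS and TDP-10+12 against TDP-15. Limma-voom called no gene and DESeq2 called 0, 0 and 2 genes, none of them a member. In TDP-10+12 all 10 members had a negative log2 fold change against TDP-PBS, with a median of -0.16, where 51.3% of all genes were negative. Most members vary together between mice, so their signs are not independent and the run of 10 is not a test. Gbp4 was at -0.004 only. With sex as a covariate Gbp4 (0.15) and Gbp8 (0.086) were positive, and with limma-voom Gbp2b (0.14) was. The intervals leave room for changes in both directions: that of Gbp6 ran from -0.90 to 0.23 around -0.33, that of Gbp3 from -0.82 to 0.09 around -0.37, and that of Gbp2 from -0.68 to 0.41 around -0.14.

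In TDP-15, 8 of 10 members had a positive value against TDP-PBS, with a median of 0.10 where 49.9% of all genes were negative. The largest was Gbp10 at 0.32 (95% interval -0.24 to 0.89), and the others lay between -0.02 and 0.18. Without mice 131 and 126 the Gbp10 value was 0.06 and those of Gbp2, Gbp2b, Gbp3, Gbp6 and Gbp7 were negative. Between the immunized groups all 10 members had lower values in TDP-10+12 than in TDP-15 (median -0.27, where 51% of all genes were negative), and this comparison shares its samples with the other 2. Here too the signs are not independent, and with sex as a covariate Gbp8 was positive (0.029). Gbp3 had an unadjusted p of 0.0457, at -0.44 ± 0.22 (SE, adjusted p = 0.723, edgeR), and Gbp10 was at -0.55 ± 0.28 (SE, adjusted p = 0.757). Without mice 131 and 126 these values were -0.28 for both.

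Per kilobase of transcript, which allows levels of different genes to be compared, Gbp2, Gbp3, Gbp9 and Gbp6 had the highest mean levels in ctrl-PBS, with 1.36 ± 0.83, 1.30 ± 0.53, 1.25 ± 0.47 and 1.10 ± 0.61 CPM per kb (SD, n = 17). Neighbours in this order did not differ beyond their spread. In TDP-PBS the order was led by Gbp6 at 6.86 ± 2.21 and Gbp3 at 5.51 ± 1.68 CPM per kb, before Gbp2 at 3.59 ± 1.08 and Gbp10 at 3.48 ± 1.21 CPM per kb (SD, n = 10). Gbp10 moved from the eighth place in ctrl-PBS (0.593 ± 0.393 CPM per kb) to the fourth, and Gbp4 from the fifth (0.890 ± 0.835) to the ninth (0.824 ± 0.318). Gbp2b stood at 0.333 ± 0.291 CPM per kb in ctrl-PBS and 0.988 ± 0.668 in TDP-PBS, and Gbp8 was last in all 4 groups. In TDP-10+12 and TDP-15 Gbp6 and Gbp3 again took the first places.

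The spread between mice was wide for every member. The biological coefficient of variation within groups was between 30.7% (Gbp9) and 101% (Gbp8), and that of Gbp2b was 100.1%, while the median of all genes tested was 13.2%. A search for steps was made by ordering the 32 rNLS8 mice by each gene's log2 CPM and taking the largest gap between neighbours, with at least 3 mice on each side. For Gbp2b this gap was 1.92 on the log2 scale, between a mouse at 0.152 CPM and one at 0.853 CPM, with 6 mice below and 26 above. It ranked 59th among the 18220 genes tested, and 0.653% of genes had a step of at least 1 (0.967% of the genes within the members' range of mean CPM). The largest gaps of the other members were between 0.14 (Gbp9) and 0.55 (Gbp8). Those of Gbp2, Gbp3, Gbp5, Gbp7, Gbp4, Gbp6, Gbp9 and Gbp10 were at most 0.24.

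Mice at or below the floor for Gbp2b were found in every group, though only 4 of 49 had 0 counts. Of 49 mice 9 had 3 Gbp2b counts or fewer: 3 of 17 in ctrl-PBS (mice 110 and 131 at 0 CPM and mouse 232 at 0.154 CPM), 2 of 10 in TDP-PBS (mice 233 and 270, both at 0 CPM), 2 of 10 in TDP-10+12 (mouse 130 at 0.0508 and mouse 51 at 0.152 CPM) and 2 of 12 in TDP-15 (mice 54 and 269, both near 0.05 CPM). The other 26 rNLS8 mice ranged from 0.853 to 8.62 CPM, and the other controls from 0.449 to 3.31 CPM. A count of 0 allows a level of up to the floor given above. By contrast, no mouse had 3 counts or fewer of Gbp2, Gbp3, Gbp4, Gbp5, Gbp6, Gbp7, Gbp9 or Gbp10.

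In these mice the other members were spread from the lower to the highest ranks of their groups. TDP-10+12 mouse 130 had the highest Gbp2 (15.8 CPM), Gbp6 (23.4 CPM) and Gbp10 (19.7 CPM) of its group. Control mouse 131 had the highest Gbp2 (10.6 CPM), Gbp3 (8.35 CPM), Gbp4 (16.6 CPM), Gbp5 (5.97 CPM), Gbp7 (8.95 CPM) and Gbp9 (11.8 CPM) of the controls, and control mouse 232 the highest Gbp6, Gbp8 and Gbp10. Counted from the lowest mouse, TDP-PBS mouse 270 ranked between 4 and 8 of 10 for the other 9 members, and TDP-15 mouse 269 between 3 and 10 of 12. TDP-PBS mouse 233, TDP-10+12 mouse 51 and TDP-15 mouse 54 were among the lower mice of their groups for most members. Their Gbp3 levels were 11.6, 8.66 and 7.95 CPM, against 8.35 CPM in the highest control and 4.78 CPM in the next.

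**Figure D3:**
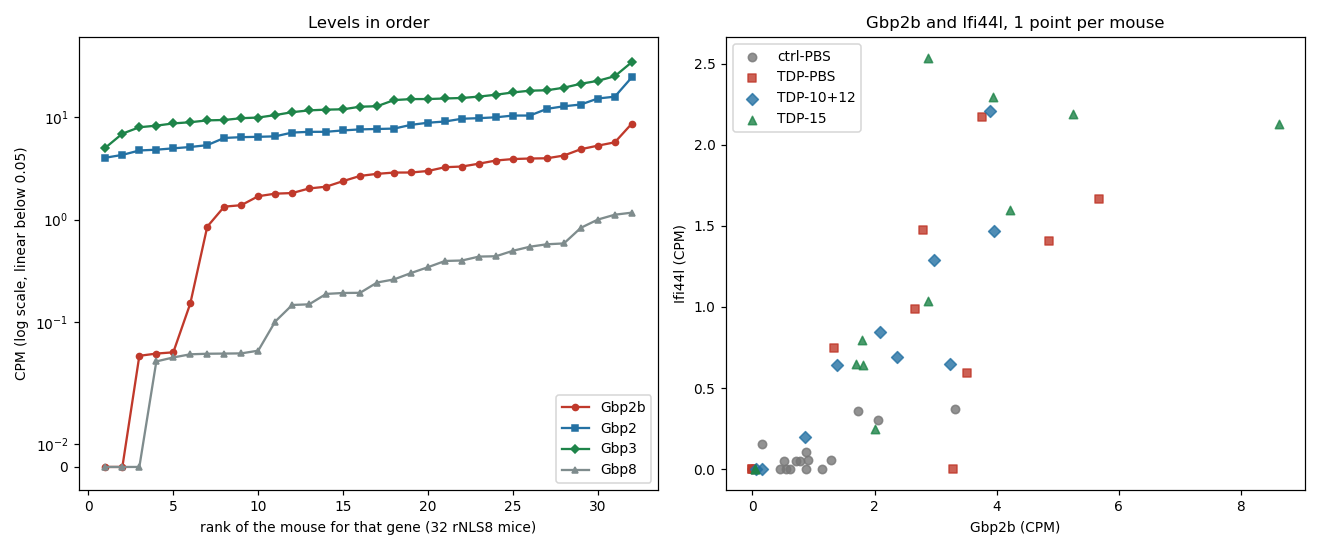
Left, CPM of Gbp2b, Gbp2, Gbp3 and Gbp8 in the 32 rNLS8 mice, each gene ordered from its lowest mouse (log axis, linear below 0.05 CPM): Gbp2b steps from 0.152 to 0.853 CPM after the 6 lowest mice while Gbp2 and Gbp3 rise smoothly. Right, Gbp2b against Ifi44l in all 49 mice by group, where the mice near 0 for Gbp2b lie near 0 for Ifi44l. The reverse does not hold. Among the rNLS8 mice, 1 TDP-PBS mouse has 3.29 CPM of Gbp2b with no Ifi44l. Most controls lie near 0 for Ifi44l whatever their Gbp2b, such as mouse 181 with 1.14 CPM of Gbp2b and no Ifi44l.

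For each member the genes with the most similar variation were ranked by Pearson's r of log2 CPM over the 49 mice with group means removed. The genes were selected for their r, so no test is given. For Gbp2b the closest was Ifi44l (r = 0.81, Spearman's rho = 0.80), followed by its neighbour Ifi44 (r = 0.60, rho = 0.76) and Gm5900 (r = 0.58, rho = 0.53). Ifi44l and Ifi44, both interferon-induced genes, lie on chromosome 3 at 9.16 and 9.14 Mb from Gbp2b. Of the 20 closest genes 6 were on chromosome 3, which holds 4.79% of the genes tested: Ifi44l, Ifi44, Alpk1 and Tifa (14.9 and 14.8 Mb away), Tmod4 (47.5 Mb) and Hax1 (52.6 Mb), the last 4 named after their values were seen. Over the 32 rNLS8 mice alone, 4 of the 20 genes closest to Gbp2b were on chromosome 3, and with a prior count of 0.5 it was 7. Those lists shared 9 and 18 of their 20 genes with the list above, and Ifi44l was first in both. None of the other 9 members had more than 2 of its 20 closest genes on its own chromosome.

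Ifi44l itself had 0 counts in 7 of the 32 rNLS8 mice. All 6 of the rNLS8 mice with 3 Gbp2b counts or fewer were among the 7, and the seventh, TDP-PBS mouse 26, had 3.29 CPM of Gbp2b. The match was looser in the controls. In ctrl-PBS 14 of 17 mice had 3 Ifi44l counts or fewer, against 3 of 17 for Gbp2b. Control mouse 181, for example, had 0 Ifi44l counts and 1.14 CPM of Gbp2b. Ifi44l is a low gene, at a median of 0.0518 CPM in ctrl-PBS, 0.868 CPM in TDP-PBS, 0.670 CPM in TDP-10+12 and 0.916 CPM in TDP-15. Ifi44 was present in all 49 mice, at a lowest value of 2.46 CPM among the rNLS8 mice. Which parental strain's chromosome 3 each mouse carried was not tested.

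Within groups, 9 of the members varied together and Gbp2b stood aside. Over the 36 pairs without Gbp2b, r was between 0.44 and 0.94 with a median of 0.70, and the highest was that of Gbp6 and Gbp10 (r = 0.94, rho = 0.90), which share sequence. Gbp3 and Gbp7 followed (r = 0.87, rho = 0.84). Over the 9 pairs with Gbp2b, r was between -0.15 and 0.23 with a median of -0.00. The Gbp2b levels showed a step in the rNLS8 mice, and 9 of 49 mice had 3 counts or fewer. For this reason r was also taken, after the values above were seen, over the 40 mice with more than 3 Gbp2b counts. There it was between 0.44 (Gbp8) and 0.69 (Gbp7) with a median of 0.57 over the 9 pairs. All these values are descriptions over mice that share group and library depth.

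**Figure D4:**
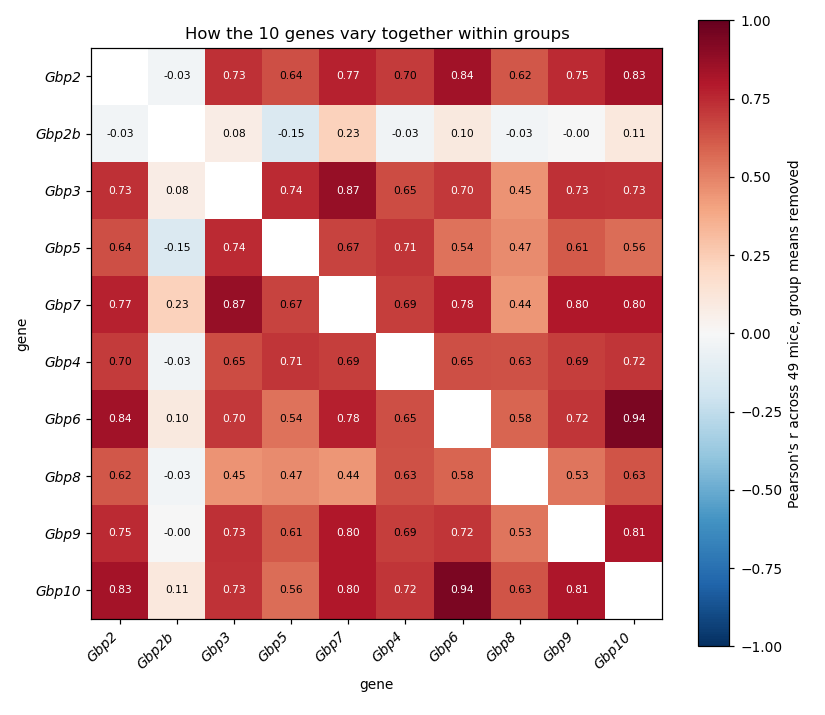
Pearson's r of log2 CPM between each pair of members over 49 mice, with group means removed (red positive, blue negative, blank diagonal). The row of Gbp2b is pale, between -0.15 and 0.23, and the remaining 36 pairs lie between 0.44 and 0.94.

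The genes closest to the other members came mainly from interferon-induced families. For Gbp3 and Gbp7 the closest was Irgm1 (r = 0.88 for both), an immunity-related GTPase, followed by Ifit3 for Gbp3 (r = 0.87) and Ddx58, the sensor RIG-I, for Gbp7 (r = 0.85). For Gbp2, Gbp9 and Gbp10 the closest was Iigp1 (r = 0.82, 0.80 and 0.83), another immunity-related GTPase, and for Gbp6 it was the chemokine Ccl5 (r = 0.80) ahead of Iigp1 (r = 0.80). For Gbp4 and Gbp8 it was Tgtp1 (r = 0.88 and 0.75), a further interferon-inducible immunity-related GTPase, and for Gbp5 it was Zbp1 (r = 0.74), a nucleic acid sensor.

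Single mice carried much of the range. TDP-15 male 126 was the highest of its group for all 10 members and the highest of all 49 mice for 8 of them, at 63.9 CPM for Gbp6, 43.9 CPM for Gbp10, 34.3 CPM for Gbp3 and 8.62 CPM for Gbp2b. The highest Gbp4 of all 49 mice was in control mouse 131 (16.6 CPM), and the highest Gbp8 was in control mouse 232 (1.80 CPM). In TDP-PBS, male 217 was the highest for 7 members, and in TDP-10+12 female 47 for 6 and male 130 for 4. Mouse 126 had the highest marker sums of its group for microglia (386 CPM, the highest of all mice), astrocytes (966 CPM), excitatory neurons (2482 CPM), endothelium (262 CPM) and B cells (2.03 CPM), and the lowest for inhibitory neurons (405 CPM). Its summed T and NK level, 5.68 CPM, was below the group median of 6.85 CPM, and its Cd4 level, 3.50 CPM, was the lowest of its group. It held the highest Ccl5 (14.6 CPM), Nkg7 (0.608 CPM) and Gzmb (0.507 CPM) of its group, genes named after their values were seen. The part of these cell types in its values was not tested. Without mice 131 and 126 the members called were 8, 7 and 8 in TDP-PBS, TDP-10+12 and TDP-15 against ctrl-PBS.

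Sex was examined because females made up 10 of 17, 4 of 10, 6 of 10 and 5 of 12 mice of the groups. With group in the model no member was called between females and males, where 0.0933% of all genes were called. Limma-voom and DESeq2 called no member either, and 3 members had an unadjusted p-value under 0.05, beside 3.97% of all genes. Gbp4 was between 1.15 and 6.55 CPM in the 25 females (median 2.99) and between 1.55 and 16.6 CPM in the 24 males (median 3.91), with a log2 difference, female minus male, of -0.63 ± 0.19 (SE, adjusted p = 0.768, edgeR). Gbp8 was at -1.09 ± 0.41 and Gbp2 at -0.35 ± 0.17 (SE, adjusted p = 0.999 for both, edgeR). The genotype by sex interaction, tested in the 27 PBS-treated mice, also gave no call for the 9 members that passed its filter, nor for any of 17363 genes (0% called), and Gbp2, Gbp5 and Gbp10 had an unadjusted p-value under 0.05, beside 6.32% of all genes. In ctrl-PBS females Gbp2 was at 2.59 ± 0.59 CPM (SD, n = 10) and in males at 4.59 ± 2.87 CPM (SD, n = 7). The medians of these control females and males were 2.46 and 3.15 CPM, and male 131 alone reached 10.6 CPM. In TDP-PBS females Gbp2 was at 9.92 ± 2.38 CPM (SD, n = 4) and in males at 8.43 ± 2.98 CPM (SD, n = 6). The interaction of Gbp2 was 1.07 ± 0.39 on the log2 scale (SE, adjusted p = 0.741, edgeR), and 0.72 to 1.20 with any 1 mouse left out. DESeq2 and limma-voom called none there either.

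Of 19 listed genes of interferon signalling 17 were tested, since Ifng and Ifnb1, which encode interferons gamma and beta, were too low to test. In TDP-PBS 11 were higher than in ctrl-PBS and none was lower (median log2 fold change 0.55), in TDP-10+12 11 were higher and 3 lower (0.48), and in TDP-15 11 were higher and 2 lower (0.48). Beside the shares of all genes given above, 20.8% to 23.7% higher and 20.0% to 23.2% lower, the calls in the lower direction lie at or below the background. The highest was Usp18, a brake on interferon receptor signalling, at 3.40 ± 0.28 in TDP-PBS (SE, adjusted p = 1.64e-14). Irf1, which acts at response elements of the members, differed less, at 0.36 ± 0.13 in TDP-PBS, 0.48 ± 0.12 in TDP-10+12 and 0.48 ± 0.12 in TDP-15 (SE). Jak2 was at -0.14 in TDP-PBS (adjusted p = 0.0989) and was lower in TDP-10+12 (-0.17, adjusted p = 0.0462) and in TDP-15 (-0.18, adjusted p = 0.018). Irf2 was at -0.08 in TDP-PBS (adjusted p = 0.406) and was lower in TDP-10+12 (-0.18, adjusted p = 0.0379) and in TDP-15 (-0.17, adjusted p = 0.0371).

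Of the 13 listed partners and effectors of guanylate-binding proteins 12 were in the table and tested. In TDP-PBS, TDP-10+12 and TDP-15, 8, 10 and 10 of the 12 were higher than in ctrl-PBS and none was lower, with median log2 fold changes of 0.87, 0.95 and 1.11. Iigp1 was the highest in all 3, at 1.66 ± 0.26, 1.59 ± 0.26 and 1.81 ± 0.25 (SE). The inflammasome gene Casp1 was at 0.13 in TDP-PBS (adjusted p = 0.578). Of 9 other large or interferon-inducible GTPases 3, 3 and 4 were higher and 0, 1 and 1 lower in the same comparisons, beside 20.8% to 23.7% of all genes higher and 20.0% to 23.2% lower, and nothing is read from so few genes. Mx1, an antiviral GTPase, had the highest value, at 3.53 ± 0.32, 3.06 ± 0.33 and 3.82 ± 0.31 (SE). The lowest was Atl1, a GTPase of the endoplasmic reticulum related in fold, at -0.09 in TDP-PBS (adjusted p = 0.0646) and lower in TDP-10+12 (-0.13, adjusted p = 0.0057). No gene of these lists was called between the rNLS8 groups, and the lists were chosen with earlier results of these samples known, so that their counts are no independent evidence.

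Markers of other cell types also differed between the groups. The 6 microglial markers summed to between 205 and 242 CPM in ctrl-PBS, 247 and 336 CPM in TDP-PBS, 211 and 320 CPM in TDP-10+12 and 215 and 386 CPM in TDP-15. Of the 6, 4 were higher in each rNLS8 group, and P2ry12 was lower in TDP-10+12 (-0.18) and TDP-15 (-0.15). Of the 4 astrocyte markers only Gfap, which rises in reactive astrocytes, was called higher. It was higher by 1.64, 1.64 and 1.57 on the log2 scale in TDP-PBS, TDP-10+12 and TDP-15, more than Gbp7, Gbp2, Gbp5 and Gbp9. The median log2 fold change of the 4 markers was -0.01, 0.03 and -0.05, and 0, 0 and 1 of them were called lower. Their summed level, which includes Gfap, was 499 to 684 CPM in ctrl-PBS against 611 to 1041 CPM in TDP-PBS. Neuronal markers were lower in part. Neurod6 of excitatory neurons was at -0.46, -0.71 and -0.50 and Gad1 of inhibitory neurons at -0.41, -0.30 and -0.42 in the 3 groups, all called. Of the 5 endothelial markers 1, 0 and 1 were higher and 1, 0 and 2 lower. Of the 2 tested markers of monocytes and macrophages 0, 1 and 0 were called, and no tested marker of B cells or blood was called in any of the 3 groups. Of the 9 markers of T and NK cells Cd4 alone was high enough to be tested, and it was lower in all 3 rNLS8 groups (log2 fold change -1.19, -1.34 and -1.60). Cd3e, Cd3g, Cd8a, Cd8b1, Nkg7, Gzmb, Ncr1 and Klrb1c were too low to test, and none of the 9 was at 0 in all mice of a group. The summed T and NK level was 2.0 to 35.4 CPM in ctrl-PBS, 4.37 to 15.1 in TDP-PBS, 4.29 to 14.9 in TDP-10+12 and 4.44 to 9.68 in TDP-15, and nearly all of it was Cd4 (1.79 to 35.2 CPM in ctrl-PBS). The part of any of these cell types in the members' levels was not tested.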

How the data were processed

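Neocortical RNA of 49 mice was sequenced in paired-end mode, with 1 library per mouse. The authors deposited raw counts per gene and mouse, aligned to GRCm38.p6 per the study's methods (mm10 per the submitters' processing notes, which list Bowtie, Bowtie2, HISAT, HISAT2 and RSEM without a role). The annotation, the counting tool and the strand setting are not given in the sources used here, so genes with near-identical copies or overlapping models are uncertain. Groups, sexes and mouse numbers came from the sample labels, and members were taken by symbol. Total counts lay between 17775738 and 21033608.

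Genes with too few reads were removed by filterByExpr, given the groups, a minimum count of 10 and a minimum total of 15. With TMM factors, 1 edgeR quasi-likelihood model (edgeR 4.0.16 under R 4.3.3) held all 49 mice with group as its only term. P-values were adjusted by Benjamini-Hochberg over all 18220 genes tested, two-sided, with 0.05 as the threshold. Standard errors were derived from the F statistic, and intervals are 95% intervals. No 2 libraries of a group were copies of each other (smallest chi-squared per degree of freedom 7.24). Log2 CPM for steps and r used a prior count of 2. Levels per kb used the length of 1 GENCODE transcript per gene. The scripts were tested on simulated data. Alternatives were limma-voom (limma 3.58.1), DESeq2 1.42.0, other scalings, no filter, sex as a covariate, a fit of only the groups compared and each mouse left out. Every member was named, with the 3 non-members of the highest r for Gbp2b, fewer for the other members, and the highest and lowest gene of each list. Another gene of the interferon signalling list, though counted, is not reported here. The members, lists and tests were chosen with earlier results of these data known. Figures were drawn with matplotlib 3.10.9.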

Additional observations from a re-analysis of the deposited data

Results flagged for a closer look

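Gbp7 in TDP-PBS mouse 217 stood apart from the rest of its group, at 24.2 CPM, by the gap to its nearest neighbour relative to the range of the group. It was the only such mouse among 20 sets of 1 member in 1 group of 10 mice, and chance flags about 1 in 20 sets. The same mouse was the highest of its group for 7 of the 10 members.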

How the results depend on the processing

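Against ctrl-PBS the number of members called stayed at 7 or 8 in each rNLS8 group under every alternative run, and between 7 and 8 with any 1 mouse left out, and no member was called between rNLS8 groups in any of these fits. By sex no member was called under the 4 alternatives run, and single mice were not left out there. Of 542 single-member differences under the alternatives 518 kept their direction and side of the threshold, and with 1 mouse left out 3075 of 3159 did. Gbp2b changed its call against ctrl-PBS as given in the report. Every reversed sign belonged to a difference that was not called, and the cause was not tested. With sex as a covariate these were Gbp4 (0.0073) and Gbp8 (0.14) in TDP-10+12 against ctrl-PBS, Gbp4 (0.15) and Gbp8 (0.086) in TDP-10+12 against TDP-PBS, Gbp8 (0.057) in TDP-15 against TDP-PBS and Gbp8 (0.029) in TDP-10+12 against TDP-15. With limma-voom they were Gbp4 against ctrl-PBS (0.14 in TDP-PBS, 0.12 in TDP-10+12), Gbp2b (0.14) in TDP-10+12 against TDP-PBS, Gbp3 (-0.027), Gbp7 (-0.011) and Gbp6 (-0.035) in TDP-15 against TDP-PBS, and Gbp2b by sex (-0.49). Without a filter Gbp2b by sex was -0.0017. Without mice 131 and 126, a choice made after seeing the data, they were Gbp4 against ctrl-PBS (0.20 in TDP-PBS and in TDP-10+12), Gbp2b (-0.21), Gbp3 (-0.089), Gbp7 (-0.13) and Gbp6 (-0.17) in TDP-15 against TDP-PBS, and Gbp2 (0.12) in TDP-10+12 against TDP-15.

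With 1 mouse left out in turn, Gbp4 ran from -0.24 to 0.20 in TDP-PBS, from -0.23 to 0.20 in TDP-10+12 and from -0.10 to 0.35 in TDP-15 against ctrl-PBS, and Gbp8 from -0.22 to 0.27 in TDP-PBS and from -0.51 to 0.15 in TDP-10+12. In TDP-10+12 against TDP-PBS, Gbp4 ran from -0.13 to 0.14 and Gbp8 from -0.65 to 0.22. In TDP-15 against TDP-PBS, Gbp2 ran from -0.25 to 0.065, Gbp2b from -0.21 to 0.25, Gbp3 from -0.089 to 0.19, Gbp6 from -0.17 to 0.26, Gbp7 from -0.13 to 0.17 and Gbp8 from -0.17 to 0.33. In TDP-10+12 against TDP-15, Gbp2 ran from -0.28 to 0.12 and Gbp8 from -0.63 to 0.035. Gbp8 did not pass the filter in some of these fits. A step of at least 1 was found for 1 member, and for 2 with a prior count of 0.5, where the other was Gbp8 (1.51). Depth limits Gbp8 and the low Gbp2b mice. No paired analysis was possible because every mouse is a separate animal and its number occurs in 1 group only.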
